A study of Zea mays with 192 samples.

Results

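The 62 protoplasts compared here are the 31 with the highest and the 31 with the lowest heat shock score among the 95 protoplasts of the bHLH pool that had at least 5000 UMIs, out of 96 in that pool and 192 in the series. They are called the high-score and the low-score group, or high and low in short. The score of a protoplast is its average log2(TPM + 10) over 6 heat shock genes, where TPM is UMIs per 1000000 UMIs of that protoplast and a UMI (unique molecular identifier) marks a single captured RNA molecule. All protoplasts were leaf protoplasts of the maize inbred B73, isolated from the leaves of more than 10 seedlings kept in constant darkness at 25 °C until 10 to 12 days after germination. Those of the bHLH pool had been transfected with a pool of basic helix-loop-helix (bHLH) transcription factors. The rows that carry most of the construct UMIs in that pool identify them as Ms23, Ms32, bHLH51 and bHLH122 fused to GFP. The protoplasts of the other pool, used to repeat the split, had been transfected with a pool of transcription factors active before meiosis. Polyadenylated RNA was counted by CEL-seq2, which tags the 3′ end of transcripts in single cells. The labels name no heat treatment, no untransfected protoplasts and no separate transfections, so each pool is 1 sample, the 62 protoplasts are no replicates of a condition, and no p-value was made from them.

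Heat shock proteins are chaperones that bind, refold or disaggregate unfolded proteins. Small heat shock proteins hold unfolded proteins in a soluble state, HSP70 and HSP90 fold and mature client proteins with ATP, and HSP101 pulls proteins out of aggregates. Their genes are switched on by heat shock factors, and plants also express them under other stresses, among them oxidative and wounding stress. Making protoplasts digests the cell wall and is itself known as a stress for plant cells.

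The protoplasts were chosen by their TPM of the 6 genes, so the values of these genes describe the split and are no finding. The small heat shock gene hsp26 (GRMZM2G149647, also named hsp18) ranged over 1302, 2908 and 5587 TPM in the high-score group (lowest, median and highest protoplast), against 322, 815 and 1961 TPM in the low-score group. The HSP90 gene HSP90-1 (GRMZM2G024668) ranged over 544, 1068 and 2330 TPM in the high-score group, against 59.6, 467 and 1041 TPM in the low-score group. Both genes were seen in all 62 protoplasts, and the ranges overlapped, with 25 high-score protoplasts above every low-score one for hsp26 and 16 for HSP90-1. For the small heat shock gene hsp18f (GRMZM2G083810) the median was 3437 TPM in the high-score group, against 919 TPM in the low-score group. For hsp22 (GRMZM2G007729), also a small heat shock gene, it was 2219 TPM (high) against 1239 TPM (low). For the HSP90 gene hsp82 (GRMZM5G833699) it was 783 TPM (high) against 128 TPM (low), and for the HSP70 gene hsp70-4 (GRMZM2G340251) 1759 TPM (high) against 801 TPM (low). The 6 genes together held a median of 1.26% of the UMIs of a high-score protoplast, against 0.492% in the low-score group, and no low-score protoplast reached the share of any high-score one (0.941% to 2.08% in the high-score group against 0.135% to 0.782% in the low-score group).

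**Figure D1:**
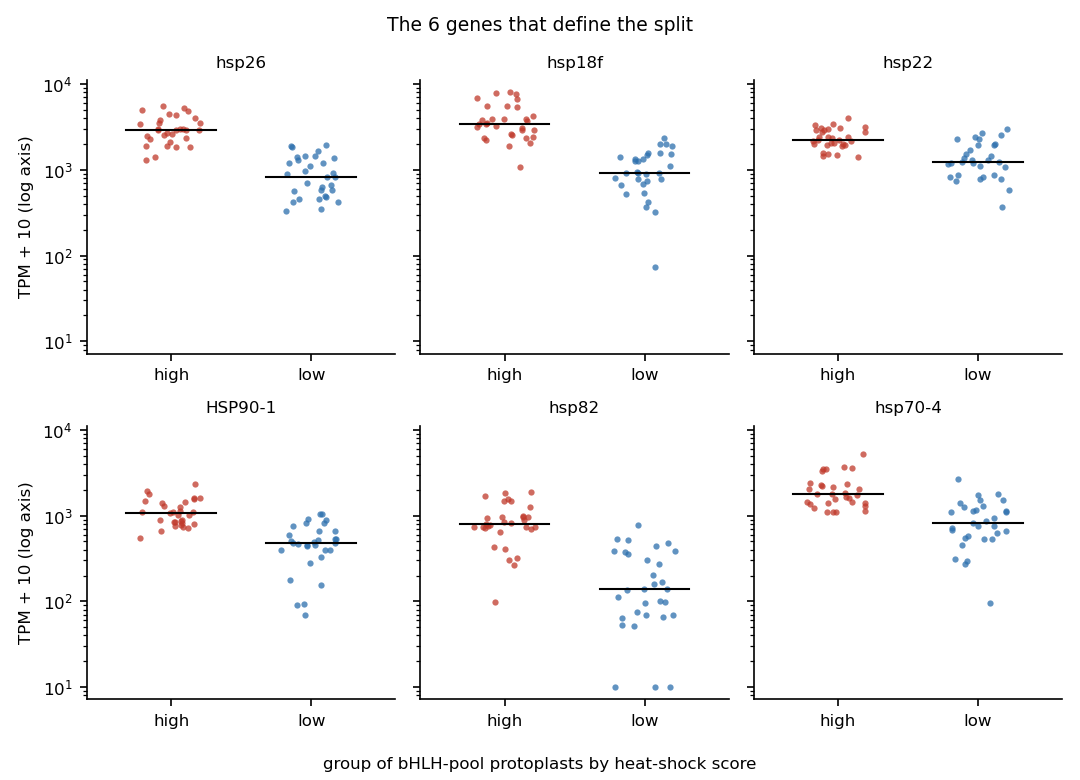
TPM plus 10 (log axis) of the 6 genes that define the split, one point per protoplast of the bHLH pool, 31 in the high-score group (left) and 31 in the low-score group (right) of each panel, with the median as a bar. The groups overlap most for hsp22 and hsp70-4, where 6 high-score protoplasts lie above every low-score one.

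The split cuts a range of scores in 3, with no gap at either cut. The scores ran from 7.54 to 11.36 with a median of 10.23 on the log2 scale. The last protoplast inside the high-score group scored 10.56 and the first outside it 10.54, and the last inside the low-score group scored 9.75 and the first outside it 9.76. The 6 genes did not rank the protoplasts alike. Over the 95 protoplasts, Spearman's rho between 2 of the genes ran from 0.20 (hsp22 with hsp82) to 0.73 (hsp26 with hsp18f). The median was 0.39 over 15 pairs. The protoplasts differed in depth, and all genes of a protoplast share its depth and library. When each gene was set aside and the protoplasts were split by the other 5, the gene set aside lay above the median gene in all 6 cases, with centred log2 ratios (log2 of the mean TPM plus 10 of one group over the other, minus that of the median gene) from 0.26 for hsp22 to 1.22 for hsp18f. Each gene set aside is one that defines the score, and 27 to 29 of the 31 high-score protoplasts stayed the same. These ratios thus describe the score and are no support for it.

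The low-scoring protoplasts were not spread evenly over the protoplast numbers in the sample titles, whose meaning the labels do not give. Of the 12 protoplasts numbered 13 to 24, none was in the high-score group and 11 were in the low-score group, which is 35.5% of that group. Their median score was 9.29, against medians of 9.58 to 10.53 in the other 7 runs of 12 numbers. They also had a median of 959 TPM on the construct rows, against 1615 to 2892 TPM in the other runs, and a median of 3178 genes detected, against 3959.5 to 6844. Protoplasts 73 to 84 gave 3 to the high and 7 to the low-score group, and the other 6 runs gave 4 to 6 to the high and 1 to 3 to the low-score group. In the other pool, protoplasts 13 to 24 gave 2 to the high and 5 to the low-score group, and protoplasts 1 to 12 gave 0 to the high and 6 to the low-score group. The runs of 12 were formed after the scores were seen, so the results are given also without protoplasts 13 to 24 (27 protoplasts a group) and with the groups formed inside each run of 12 and then joined (31 a group).

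**Figure D2:**
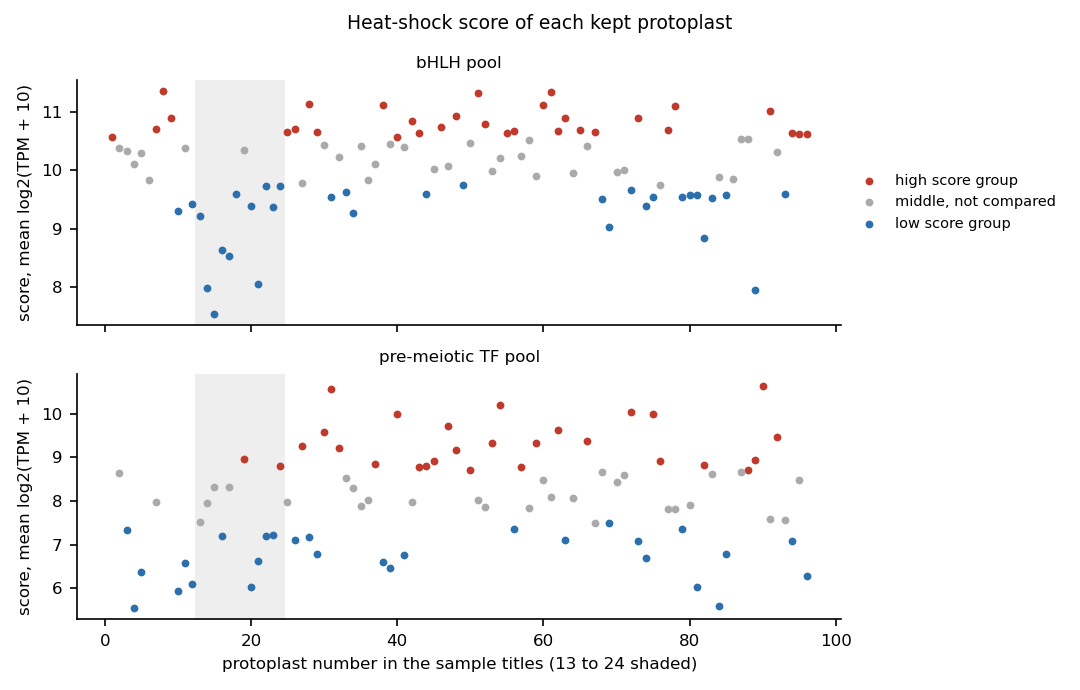
Heat shock score (mean log2 of TPM plus 10 over the 6 genes) of each kept protoplast against its number in the sample titles, for the bHLH pool (top) and the pre-meiotic TF pool (bottom), coloured by group. In the shaded range of 13 to 24, 11 of the 12 bHLH-pool protoplasts are in the low-score group.

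Depth differed little between the groups, and the make-up of the RNA differed more. The median was 28274 UMIs in the high-score group and 25754 in the low-score group, and of the 31 deepest protoplasts 7 were high-scoring and 10 low-scoring. A median of 5585 genes was detected in the high-score group, against 4585 in the low-score group. With every protoplast thinned to 5000 UMIs the medians were 1726 genes in the high-score group and 1381 in the low-score group. The most abundant gene model, GRMZM2G028910, which has no name in the reference used, held a median of 18.6% of UMIs in the high-score group, against 25.5% in the low-score group. The 20 most abundant rows together held 39.5% in the high-score group against 50.9% in the low-score group. Of the 31 protoplasts with the largest share of GRMZM2G028910, 1 was high-scoring and 19 were low-scoring. The median eligible gene had a log2 ratio of 0.31, and a centred ratio is one from which this shift was subtracted. With TPM computed without GRMZM2G028910 and the score genes the shift was 0.22. When the groups were formed separately among the protoplasts with larger and with smaller shares of GRMZM2G028910 and then joined, that shift was 0.11.

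The comparison across other genes used 1433 gene models with a UMI in at least 25% of the kept protoplasts and a mean of at least 50 TPM over them. The centred log2 ratio sets the mean TPM plus 10 of the high-score group over that of the low-score group, so low genes have their ratios shrunk, and a gene is called past the fold when the ratio is 1 or more in size. In all, 26 genes were past the fold higher in the high-score group (1.81%) and 24 lower (1.67%). Without the centring there were 100 higher and 9 lower. Without protoplasts 13 to 24 there were 24 higher and 14 lower, 13 and 6 of them among those just given. With groups formed inside the runs of 12 there were 11 and 11, 8 and 7 of them shared, and 25 of the 26 higher and 19 of the 24 lower genes kept their side of the median gene.

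Of the heat shock list, which holds heat shock protein and heat shock factor genes by name and not the 6 score genes, 8 of 19 matched members were eligible. Of these, 7 lay above the median gene (50% of all eligible genes do), 3 were past the fold higher and none lower, with a median centred log2 ratio of 0.93. Without protoplasts 13 to 24 the median was 0.80, with 3 past the fold, and with groups formed inside the runs of 12 it was 0.64, with 2. The list was drawn up with earlier results of these data known, and its members were compared in the protoplasts that the score of related genes had sorted. Near-identical heat shock genes may share reads, so the split between close copies is uncertain.

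Small heat shock genes led the list. hsp18c (GRMZM2G034157) had 470, 1689 and 4196 TPM in the high-score group (lowest, median, highest), against 40.8, 443 and 1400 TPM in the low-score group. Of the high-score protoplasts, 20 lay above every low-score one. Its centred log2 ratio was 1.46, and the ratio of summed UMIs, each sum taken per UMI of its group as in all such ratios and not centred, was 5.10 (exact 95% interval 4.62 to 5.64, which covers counting error only, as do all intervals given). hsp18a (GRMZM2G404249, HSP18 in the reference) had 148, 815 and 2569 TPM in the high-score group, against 9.77, 164 and 990 TPM in the low-score group, also with a ratio of 1.46. Inside the runs of 12 the ratios were 1.18 for hsp18c and 1.06 for hsp18a.

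The large chaperones moved less on this scale. hsp101 (GRMZM2G360681), which codes for the disaggregase, had 1001, 2245 and 4336 TPM in the high-score group, against 176, 985 and 2138 TPM in the low-score group, a centred log2 ratio of 0.97 and a ratio of summed UMIs of 2.88 (2.68 to 3.10). The HSP70 gene GRMZM2G310431 had 1241, 3828 and 5846 TPM in the high-score group, against 490, 1626 and 2889 TPM in the low-score group, a ratio of 0.89. Its groups overlapped little: 25 of the 31 high-score protoplasts lay above every low-score one. Inside the runs of 12 these ratios were 0.84 and 0.44. The HSP90 gene HSP90-2 (GRMZM2G012631) had a median of 508 TPM in the high-score group and 286 TPM in the low-score group (0.46). hsp1 (GRMZM5G802801) had 74.8 TPM (high) against 29.3 TPM (low; ratio 0.60) and lay at -0.08 inside the runs of 12.

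The 2 eligible heat shock factor genes, which code for the transcription factors of the response, lay on opposite sides of the median gene. Hsf05 (GRMZM2G133023) had 0, 191 and 801 TPM in the high-score group, against 0, 59.6 and 191 TPM in the low-score group. More than the highest low-score value was seen in 16 high-score protoplasts, and the centred log2 ratio was 1.19, or 0.90 without protoplasts 13 to 24. Hsf01 (GRMZM2G165998) had a median of 153 TPM in the high-score group and 163 TPM in the low-score group. Its ratio of -0.64 was -0.42 without its highest low-score protoplast and -0.39 without protoplasts 13 to 24. Inside the runs of 12 the ratios were 0.87 for Hsf05 and -0.14 for Hsf01. The reference gives the name Hsf05 to a second model as well, GRMZM2G132971, which had a UMI in 5 high-score and 7 low-score protoplasts and was not eligible. The other 10 members that were not eligible had a median of 0 TPM in both groups, among them the small heat shock gene hsp 17.2 (GRMZM2G158232), seen in 8 high-score and 5 low-score protoplasts.

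**Figure D3:**
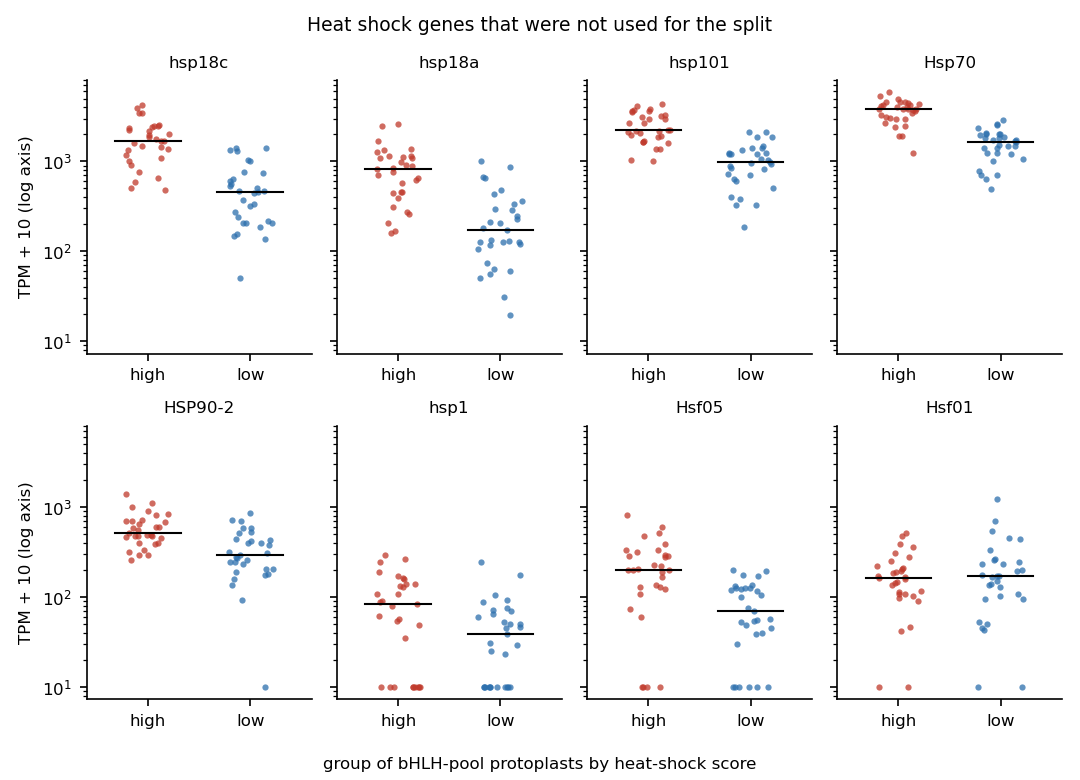
TPM plus 10 (log axis) of the 8 eligible heat shock genes that were not used for the split, one point per bHLH-pool protoplast, high-score group left and low-score group right in each panel, with the median as a bar and protoplasts without a UMI at 10. The bars of hsp18c stand at 1689 TPM (high) and 443 TPM (low) before the 10 is added, and those of Hsf01 at 153 TPM (high) and 163 TPM (low).

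Beyond the heat shock list, most of the genes with the highest ratios have no name in the reference used. The highest was GRMZM2G095280, with 0, 80.4 and 893 TPM in the high-score group, against 0, 0 and 148 TPM in the low-score group (centred log2 ratio 2.10, or 1.23 inside the runs of 12). It had a UMI in 26 of 31 high-score and 10 of 31 low-score protoplasts. The most abundant of the top 12 was GRMZM2G437100, with 561, 6625 and 14112 TPM in the high-score group, against 293, 1514 and 5306 TPM in the low-score group (1.36, or 0.86 inside the runs). For this gene 21 high-score protoplasts lay above every low-score one. GRMZM5G899188 had 199, 1217 and 3018 TPM in the high-score group, against 29.3, 234 and 1244 TPM in the low-score group (1.53), and GRMZM2G346839 had 282, 781 and 2476 TPM (high) against 0, 191 and 1163 TPM (low), also with a ratio of 1.53. GRMZM2G012455 had a median of 502 TPM in the high-score group and 64.8 TPM in the low-score group (1.74), and GRMZM2G088819 156 TPM (high) against 68.4 TPM (low; ratio 1.51).

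The other 4 unnamed models among the top 12 had ratios of 1.30 to 1.40. GRMZM2G170017 had a median of 218 TPM in the high-score group and 58.6 TPM in the low-score group, with a ratio of 1.40 that was 0.39 inside the runs of 12. GRMZM2G118766 had 142 TPM (high) against 15.3 TPM (low; ratio 1.30, or 0.37 inside the runs), and GRMZM2G031033 645 TPM (high) against 184 TPM (low; ratio 1.30, or 1.10 inside the runs and 1.14 without protoplasts 13 to 24). GRMZM5G849535 had 32.6 TPM (high) against 0 TPM (low), and without protoplast 28, at 2122 TPM, its ratio of 1.36 was 0.68. Of the 26 genes past the fold, 17 were still past it without their single highest high-score protoplast.

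Among genes with a name, the aldehyde oxidase gene AO1 (GRMZM2G141535) had 0, 288 and 1165 TPM in the high-score group, against 0, 98.6 and 466 TPM in the low-score group (1.12, or 0.45 inside the runs of 12 and 0.34 without protoplasts 13 to 24). Short of the fold, ERTC (GRMZM2G051135) had a median of 868 TPM in the high-score group and 393 TPM in the low-score group (0.81). The transcription factor gene NAC1 (GRMZM2G347043), of a family known for stress responses, had 511 TPM (high) against 239 TPM (low; ratio 0.80, or 0.11 inside the runs). Both AO1 and NAC1 were thus nearer to the median gene inside the runs.

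Genes past the fold in the other direction included abundant and sparse ones. GRMZM2G049211 had 7283, 13121 and 37110 TPM in the high-score group, against 8983, 21109 and 110540 TPM in the low-score group (centred log2 ratio -1.24, or -0.94 inside the runs of 12 and -0.59 without protoplasts 13 to 24, one of which had the highest value). GRMZM5G806488 had a median of 66457 TPM in the high-score group and 107418 TPM in the low-score group (-1.09). With GRMZM2G028910 at medians of 185545 TPM (high) against 255038 TPM (low; ratio -0.78), these abundant models had lower shares in most high-scoring protoplasts: in 18.3% of all pairs of a high-score and a low-score protoplast did the high-score one have more of GRMZM2G028910, and in 23.6% more of GRMZM2G049211. The groups overlapped for each of them.

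The ratios of several sparse genes depended on single protoplasts or on the numbering, and those of others did not. GRMZM2G510249 had 0, 38.1 and 331 TPM in the high-score group, against 0, 91.9 and 1714 TPM in the low-score group (-2.12). It had a UMI in 28 of 31 low-score protoplasts and stayed past the fold without its highest one (-1.77), inside the runs of 12 (-1.61) and without protoplasts 13 to 24 (-1.26). HMT-1 (GRMZM6G310687), a homocysteine methyltransferase gene of methionine synthesis, had 0, 97.2 and 489 TPM in the high-score group, against 0, 191 and 3501 TPM in the low-score group (-1.85). The highest low-score value of HMT-1 came from protoplast 24, without which the ratio was -1.42, and inside the runs of 12 it was -0.01. AC188003.3_FG011 had a median of 149 TPM in the high-score group and 272 TPM in the low-score group, with 6698 TPM in protoplast 24. Its ratio of -1.75 was -1.07 without that protoplast and 0.24 inside the runs. Protoplast 15 held the highest low-score value of GRMZM2G510249, GRMZM2G170805 (-1.83), GRMZM5G880753 (-1.82), GRMZM2G455413 (-1.41) and GRMZM5G878778 (-1.23).

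For 11 of the 12 lowest genes the highest low-score value came from a protoplast numbered 13 to 24, as it did for 52.2% of all eligible genes. Without these protoplasts the ratio was -0.25 for GRMZM2G170805, -0.65 for GRMZM5G880753, -0.34 for GRMZM2G006937 (-1.24 with them) and -0.93 for GRMZM2G062044 (-1.32). GRMZM2G019619 had medians of 0 TPM in the high-score group and 38.8 TPM in the low-score group (-1.36, or -1.09 without them). Of the 24 lower genes, 21 also had a lower median in the high-score group, and 14 were still past the fold without their single highest low-score protoplast.

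Named genes on the lower side belonged to several pathways. The cytidine deaminase gene cda1 (GRMZM2G082924) had a median of 35.4 TPM in the high-score group and 85.9 TPM in the low-score group (-1.14, or -0.28 inside the runs of 12). wip1 (GRMZM2G156632), which codes for a protease inhibitor made after wounding, had 80.1 TPM (high) against 109 TPM (low; ratio -1.13, or -0.11), and the jasmonate synthesis gene aos1 (GRMZM2G067225) 36.3 TPM (high) against 42.9 TPM (low; ratio -1.03, or 0.35). All 3 were thus short of the fold inside the runs, and aos1 was on the other side. The ratios of sdh1 (GRMZM2G175423), the dehydrin gene dhn1 (GRMZM2G079440), the xyloglucan endotransglycosylase gene xet1 (GRMZM2G026980) and cki2 (GRMZM2G101613) ran from -0.68 to -0.92, and dhn1 was at -0.18 without protoplast 89.

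None of the other gene lists had a member past the fold higher. All 5 eligible genes for protein folding in the endoplasmic reticulum lay above the median gene (50% of all eligible genes do), with a median of 0.53. The chaperone gene bip2 (GRMZM2G415007) had a median of 106 TPM in the high-score group and 50.7 TPM in the low-score group (0.61), its relative b-70 (GRMZM2G114793) 304 TPM (high) against 98.2 TPM (low; ratio 0.52), and the calnexin gene CNX (GRMZM2G022180) 105 TPM (high) against 58.6 TPM (low; ratio 0.21). That side depended on the numbering: inside the runs of 12, 3 of 5 lay above with a median of 0.03, and without protoplasts 13 to 24, 2 of 5 with a median of -0.03.

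The 5 ubiquitin and proteasome genes lay above the median gene as well, with a median of 0.24, and all 5 did so inside the runs of 12 (0.35) and without protoplasts 13 to 24 (0.34). The ubiquitin gene MUB3 (GRMZM2G409726) had 1092, 2637 and 4512 TPM in the high-score group, against 513, 1343 and 3806 TPM in the low-score group (0.55). Of 7 glutathione S-transferase genes, which conjugate toxic compounds to glutathione, 6 lay above with a median of 0.11, but 3 did so inside the runs of 12 (median -0.16) and 4 without protoplasts 13 to 24 (0.03). Of these genes, gst5 (GRMZM2G308687) had a median of 3523 TPM in the high-score group and 1329 TPM in the low-score group (0.79). gst2 (GRMZM2G132093) lay at -0.48. Among the autophagy genes, 4 of 6 were above it (median 0.16), from atg9 (GRMZM2G035461, 0.63) to Atg8e (GRMZM2G014975, -0.26).

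Lists on or below the median gene included wound and defence, with 3 of 8 above and a median of -0.12, and glycolysis, with 2 of 8 above and a median of -0.22. Of the glycolysis genes, the aldolase gene ald1 (GRMZM2G057823) lay at 0.55 and the glyceraldehyde-3-phosphate dehydrogenase gene gpc4 (GRMZM2G176307) at -0.81. Of 20 translation genes 8 lay above, with a median of -0.08. The 3 antioxidant enzyme genes ran from cat1 (GRMZM2G088212), the catalase gene, at -0.21 to Sod4A (GRMZM2G058522), a superoxide dismutase gene, at 0.15. Of the 3 eligible members of the jasmonate list, opr1 (GRMZM2G106303) and opr2 (GRMZM2G000236), named after oxophytodienoate reductase, lay at 0.19 and 0.07. The other was aos1. The dehydration-responsive factor gene DBP1a (GRMZM2G006745) was the 1 eligible member of its list, at 0.64, or 0.08 inside the runs of 12.

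**Figure D4:**
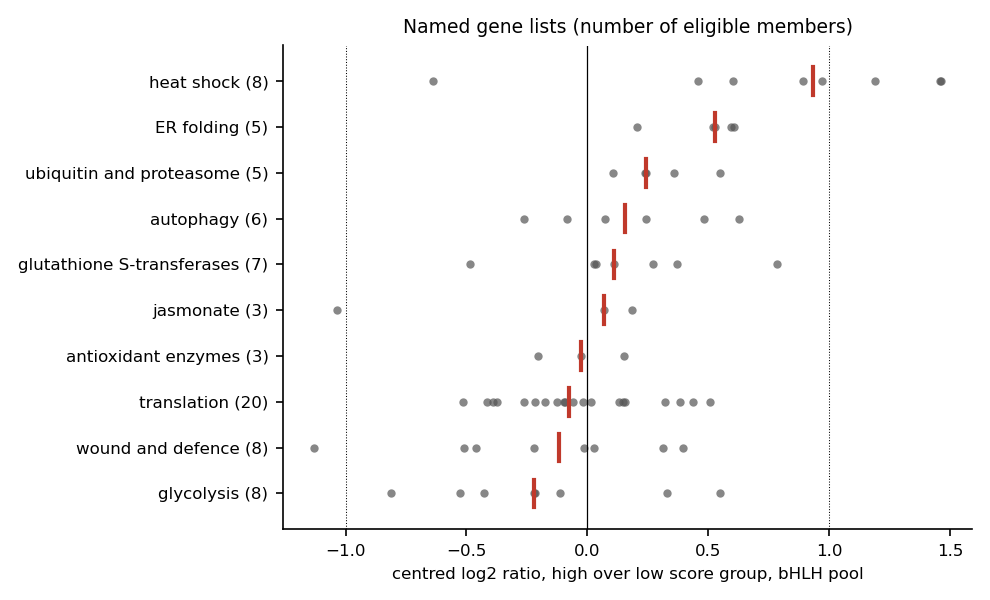
Centred log2 ratio (high over low-score group, bHLH pool) of each eligible member of the gene lists with at least 3 eligible members, with the list's median as a bar and the fold of 1 as dotted lines. The heat shock list has the highest median at 0.93, followed by endoplasmic reticulum folding at 0.53.

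The constructs moved with the score. The 8 rows of the 4 transfected factors summed to 1047, 2494 and 5018 TPM in the high-score group (lowest, median, highest), against 81.6, 1293 and 6149 TPM in the low-score group, a ratio of 1.49 (1.40 to 1.58) between the summed UMIs per UMI of each group. Of the 31 protoplasts with the most construct RNA, 17 were high-scoring and 5 low-scoring, and of the 31 with the least, 2 were high-scoring and 19 low-scoring. Inside the runs of 12 the medians were 2316 TPM (high) and 1480 TPM (low), and without protoplasts 13 to 24 they were 2447 TPM (high) and 1903 TPM (low). The rows with the factor named before GFP had most of these UMIs: those of bHLH122 and bHLH51 had medians of 783 and 741 TPM in the high-score group, against 446 and 493 TPM in the low-score group. Those of Ms23 and Ms32 had 312.5 and 255 TPM in the high-score group, against 178 and 121 TPM in the low-score group. Relative to the median gene the ratios of these 4 rows were 0.38, 0.18, 0.43 and 0.23. The part of construct RNA in the heat shock difference was not tested.

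RNA of PHAS loci, the source of the phased small RNAs of anthers, was also higher per UMI in the high-score group. For the 24-nucleotide loci the difference was close to that of the median gene. The 36 rows of 24-nucleotide PHAS loci summed to 116, 314 and 673 TPM in the high-score group, against 42.9, 229 and 761 TPM in the low-score group, a ratio of 1.32 (1.12 to 1.55) between the summed UMIs per UMI of each group. This ratio is not centred. The 44 rows of 21-nucleotide loci had 119 UMIs in the high-score group and 71 in the low-score group, which had more UMIs in all, so that per UMI of each group the ratio was 2.02 (1.49 to 2.74). A UMI of a 21-nucleotide locus was seen in 26 of 31 high-score and 18 of 31 low-score protoplasts, and after thinning in 48.4% of the high-score and 16.1% of the low-score protoplasts.

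Markers of other cell types were at like levels in both groups of the bHLH pool. In the other pool the sum of the C4 mesophyll genes differed. The 4 C4 mesophyll genes summed to 0, 88.9 and 282 TPM in the high-score group, against 0, 73.8 and 410 TPM in the low-score group, and 23 (high) against 25 (low) protoplasts had a UMI. The bundle sheath gene ME1 (GRMZM2G085019) was seen in 7 (high) against 9 (low) protoplasts and the epidermal gene ocl1 (GRMZM2G026643) in 17 (high) against 16 (low). The 2 tapetum genes had 1 UMI each in the 2 groups together. In the pre-meiotic TF pool, split by its own scores, the C4 mesophyll genes had a median of 223 TPM in the high-score group, against 41.9 TPM in the low-score group, and were seen in 27 of 28 high-score and 19 of 28 low-score protoplasts. Most of that sum was C4ppdkZm1 (GRMZM2G306345), with medians of 195 TPM (high) and 34.3 TPM (low). The other members were sparse: pep1 had a UMI in 3 (high) and 4 (low) protoplasts, GRMZM2G121878 in 6 and 3, and mdh6 in 6 and 1. The part of these genes in the results of that pool was not tested. In the bHLH pool the labelled leaf origin is thus poorly marked by these genes in either group, in seedlings that had seen no light.

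The same split was made among the 86 protoplasts of the pre-meiotic TF pool with at least 5000 UMIs, 28 in each group, with its own scores and the same gene models. Scores there were lower, with a median of 8.03, and 28 of the 31 low-score protoplasts of the bHLH pool lay above that median. Here 39 of 1431 genes were past the fold higher (2.73%) and 127 lower (8.87%), and the shift of the median gene was 0.91. A gene with equal mean TPM in both groups thus lay at -0.91. Without the centring there were 628 higher and 1 lower. Of the 26 genes past the fold higher in the bHLH pool, 11 were so in the pre-meiotic TF pool, which is 42.3% of the 26 and 28.2% of the 39, and 23 lay above the median gene. Of the 24 lower genes 9 were shared, 37.5% of the 24 and 7.09% of the 127, and 18 lay below. No gene was past the fold in opposite directions. Across the 1431 genes, which are no independent replicates, the ratios of the pools had a Pearson correlation of 0.53 and a Spearman correlation of 0.49.

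**Figure D5:**
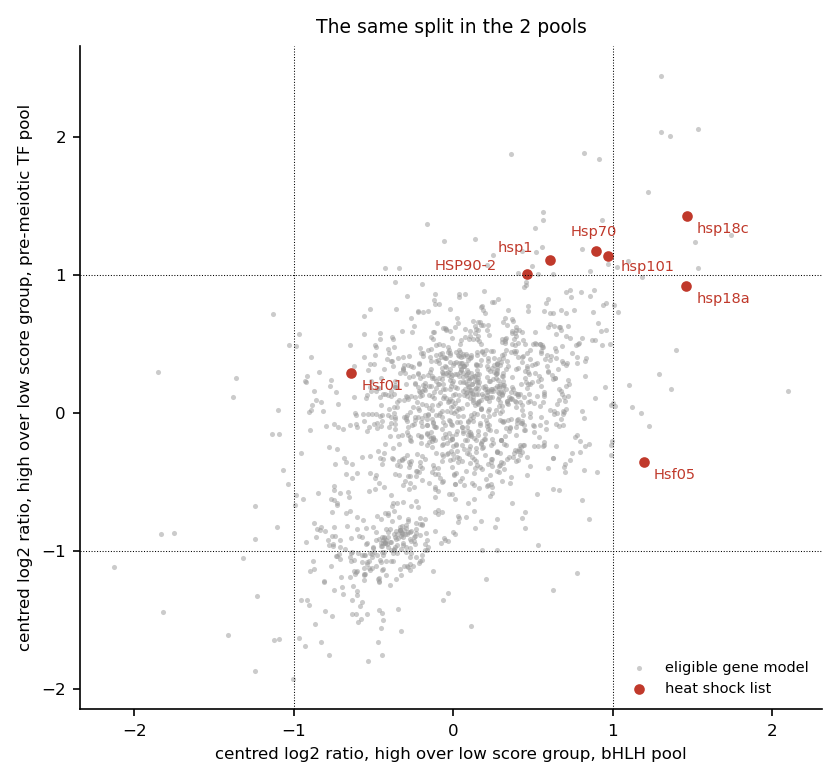
Centred log2 ratio of the high over the low-score group in the bHLH pool (horizontal) and in the pre-meiotic TF pool (vertical), with the heat shock list in red and the fold of 1 as dotted lines. Each gene model shown was eligible in the bHLH pool and had a UMI in the kept protoplasts of the other pool, where no other filter was set. hsp18c lies past the fold in both pools, and Hsf05 is at 1.19 in the bHLH pool and -0.36 in the other.

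Most of the heat shock list was higher in the high-score group of both pools. hsp18c had a median of 591 TPM in the high-score group of the pre-meiotic TF pool, against 99.4 TPM in its low-score group, a ratio of 1.43. hsp18a was short of the fold there at 0.92, below the large chaperones. hsp101 lay at 1.14 there and the HSP70 gene GRMZM2G310431 at 1.18, and hsp1 at 1.11 and HSP90-2 at 1.01, against 0.60 and 0.46 in the bHLH pool. The heat shock list had 5 of 8 members past the fold and a median of 1.06. In the main split other lists lay elsewhere than in the bHLH pool. Of the ubiquitin and proteasome genes 1 of 5 was above the median gene (median -0.11), of glycolysis genes 7 of 8 (0.49) and of translation genes 15 of 20 (0.21). These places depended on the grouping. With groups formed separately by the share of the most abundant gene, the same lists had 4 of 5 (0.30), 5 of 8 (0.03) and 14 of 20 (0.14) above. Inside the runs of 12 they had 4 of 5 (0.04), 7 of 8 (0.38) and 12 of 20 (0.04). The C4 gene C4ppdkZm1 (GRMZM2G306345), which codes for pyruvate phosphate dikinase, was past the fold in the main split of the pre-meiotic TF pool at 1.37. It lay at -0.17 in the bHLH pool. The unnamed models GRMZM2G437100 (2.01), GRMZM2G031033 (2.44), GRMZM2G346839 (2.06) and GRMZM2G118766 (2.03) had larger ratios than in the bHLH pool. On the lower side GRMZM2G049211 lay at -1.87 and GRMZM5G806488 at -1.64.

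Other genes differed between the pools, and no difference between them was tested, since each pool is 1 sample. Hsf05 had medians of 6.24 TPM in the high-score group and 0 TPM in the low-score group of the pre-meiotic TF pool, a ratio of -0.36 against 1.19 in the bHLH pool. Hsf01 lay at 0.29 there, against -0.64 in the bHLH pool, so both heat shock factor genes changed sides. GRMZM2G095280 lay at 0.16 and AO1 at 0.04 in the pre-meiotic TF pool. The shift of the median gene subtracted in these ratios was larger there than in the bHLH pool. Before it was subtracted, the log2 ratios there were 0.55 for Hsf05, 1.20 for Hsf01, 1.07 for GRMZM2G095280 and 0.95 for AO1. All were higher in the high-score group. HMT-1 (GRMZM6G310687), lower in the high-score group of the bHLH pool, lay at 0.30, but at -0.17 without its highest protoplast, number 75. wip1 (GRMZM2G156632), also lower there, had a median of 373 TPM in the high-score group and 150 TPM in the low-score group (0.72, or 0.06 with groups formed separately by the share of the most abundant gene). In that pool the groups also differed more in their most abundant gene, GRMZM2G028910, with medians of 26.1% of UMIs in the high-score group and 42.4% in the low-score group. With groups formed separately among its protoplasts with larger and with smaller shares, 27 genes were higher and 6 lower. Of these, 21 and 2 were among the 39 and 127 of the main split.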

How the data were processed

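CEL-seq2 was run on single protoplasts, per the labels' protocols. The submitters' processing notes name UMI-tools, HISAT2 and SAMtools and the build B73 RefGen_v3. Not given in the sources used here were versions, annotation, strand and the handling of reads shared between genes. The values deposited by the authors under the name TPM are a scaled signal whose sums per protoplast ran from 65502 to 10967900, because the totals used as divisors were recycled down the rows. Undoing this gave whole UMI counts for 1001042 of 1001042 nonzero values (within 0.001), from which TPM was recomputed within each protoplast, without a gene length. The planned design assumed the deposited values and included a search of promoters for heat shock elements, which was not made because no promoter sequence was used here; it was otherwise kept. The bHLH pool had 3274116 UMIs in 96 protoplasts (4699 to 148894 each), and the other pool 3029855 (953 to 88243). The 5000 UMI minimum left out 1 and 10 protoplasts.

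The members and gene lists were chosen with earlier results of these data known, and construct rows were assigned to a pool from where most of their UMIs fell. The 8 rows of the bHLH pool also had 16 UMIs in the high-score and 9 in the low-score group of the other pool. Genes named are the 6 score genes, the 12 highest and 12 lowest past the fold whose median moved the same way, the 8 highest and 8 lowest with a name, the eligible heat shock list, 2 to 4 members of each other list, the constructs and the most abundant gene. GRMZM5G806488 and the members that were not eligible were added after their values were seen. Names come from the table of Zm-B73-REFERENCE-NAM-5.0, which gave a row for 16091 IDs and an informative name for 2234; it holds no description, and no coordinates or sequences are given. The lists of chaperonins and of WRKY factors had no eligible member, and those of photosynthesis, cell cycle and small RNA machinery had 1 each, with centred log2 ratios of -0.17, 0.12 and 0.01. Ratios of summed UMIs are divided by the ratio of the groups' total UMIs and have exact binomial 95% intervals. No doublet caller was run, since each sample is labelled as 1 protoplast. The comparison was tested before use on counts simulated from these means, as a check of the calculation. The simulated protoplasts differed only by depth, counting and changes set in marked groups. Single protoplasts with high values and runs of numbers were thus not covered. Python 3.11.15, numpy 2.4.6, pandas 2.3.3 and scipy 1.17.1 were used.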

Additional observations from a re-analysis of the deposited data

How the results depend on the processing

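Against 26 genes higher and 24 lower in the high-score group of the bHLH pool, and 39 and 127 in the pre-meiotic TF pool, these counts moved by over 1.5 times. A pseudocount of 1 gave 40 and 41, and 242 lower in the second pool. A pseudocount of 100 gave 14 and 6, and 5 lower. With no filter on low values they were 429 and 80, and 1098 and 40, and with a filter of 50% and 100 TPM 13 lower, and 60 lower. Thinning to 5000 UMIs gave 66 and 49, and 110 higher. Groups of 23 and 21 protoplasts gave 51 and 50, and 59 and 216, and groups of 47 and 43 gave 12 higher, and 20 and 24. Summed UMIs gave 40 higher, and 49 lower. Ratios without centring gave 100 and 9, and 628 and 1. TPM without the score genes and the most abundant gene gave 41 lower in the bHLH pool. The deposited values gave 527 and 494, and 473 and 470. Leaving out score genes moved the lower count of the second pool to 200 (hsp18f), 68 (hsp22), 81 (HSP90-1), 198 (hsp82) and 64 (hsp70-4).

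The following were chosen after seeing the data. Without protoplasts 13 to 24 the bHLH pool had 14 lower, and inside the runs of 12 it had 11 and 11. In the second pool the lower count was 65 with at least 2000 genes a protoplast, 6 with groups formed separately at larger and smaller shares of the most abundant gene, and 46 with a score of the 3 small heat shock genes. The cause of these moves was not tested, except that fewer or more genes are compared under another filter.

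Of the genes named as past the fold, 723 of 728 values in the bHLH pool kept their sign over the alternatives. The deposited values turned GRMZM2G170017 (-0.81), GRMZM2G031033 (-0.25) and aos1, listed as GRMZM2G067225 (0.34). Inside the runs of 12, AC188003.3_FG011 (0.24) and aos1 (0.35) turned. In the second pool the deposited values turned GRMZM2G510249 (1.48), GRMZM2G455413 (0.42), ERTC (-0.33) and HSP90-2 (-0.13), and groups formed separately by the share of the most abundant gene turned GRMZM2G510249 (0.15). hsp18c lay at 1.00 to 2.35 and hsp18a at 0.97 to 1.88 over the 26 alternatives in the bHLH pool. No paired analysis was possible because each pool is 1 sample, and the labels pair no protoplasts between the pools. Genes under about 50 TPM rest on few UMIs a protoplast, which limits their ratios.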

Other observations

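Over the 95 kept protoplasts of the bHLH pool, unnamed models followed the score as closely as named heat shock genes did. The protoplasts differed in depth, and all genes of a protoplast share its depth and library. GRMZM2G306679 (Spearman's rho 0.74, and 0.67 after thinning to 5000 UMIs) was level with hsp18c (0.74, and 0.56 thinned) and the HSP70 gene GRMZM2G310431 (0.73, and 0.57). GRMZM2G481525 (0.72, and 0.68 thinned), GRMZM2G069651 (0.72) and GRMZM2G346839 (0.71) came next. GRMZM2G481525 followed the score at 0.83 and GRMZM2G306679 at 0.79 in the 86 protoplasts of the pre-meiotic TF pool, where GRMZM2G046382 led at 0.84. The reference used gives none of these unnamed models a name. The lowest values in the bHLH pool were those of GRMZM2G028910 (-0.47) and GRMZM5G806488 (-0.46), and GRMZM2G028910 was also the lowest in the other pool (-0.67). These genes were picked from the same protoplasts that give their values, so the values are a description.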
